A study of Mus musculus with 36 samples.

Results

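The genes described here are Atf4 and 9 genes of the integrated stress response, Ddit3, Atf3, Trib3, Chac1, Sesn2, Slc7a11, Asns, Psat1 and Phgdh. They were chosen by name and found by Ensembl identifier among the 49671 mouse genes of the deposited count table. All 10 passed the filter on low counts and were among the 23501 genes tested. The study sequenced poly(A)-selected RNA of mouse embryonic stem cell cultures in 36 libraries, on 3 lines named for the gene that can be deleted in them. BOD1L is a subunit of the SETD1A complex, SETD1A methylates histone H3 lysine 4, and Mll2, listed in the table as Kmt2b, encodes another enzyme for that mark. Each line was profiled as knockout (KO) and wild type (WT) in 3 media with 2 cultures per group. The 2i medium held LIF with the inhibitors PD0325901 and CT99021 and is labelled naive, the FCS medium held LIF with fetal calf serum and is labelled cycling, and the EpiSC medium held Activin A with FGF2 and is labelled epiblast-like. Tamoxifen is named in the labels of the KO cultures and in none of the WT cultures, so gene loss and tamoxifen cannot be told apart. Every comparison of KO with WT is within a single line. The p-values rest on the spread between cultures of the same group, estimated in a single fit of all 36 libraries. They do not measure the spread between independent lines of a genotype.

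The libraries held 24.5 to 40.6 M counts on genes (median 32.6 M). Bod1l averaged 48.3 ± 11.6 CPM in the Bod1L KO cultures and 225 ± 66.4 CPM in their WT (SD, n = 6 each), a fall of 2.21 ± 0.142 log2 units (SE). Setd1a averaged 39.6 ± 2.47 CPM in the Setd1a KO and 51.7 ± 6.37 CPM in WT, and was lower in 6 of 6 pairs of cultures without passing the test (edgeR adjusted p = 0.0957). With the replicate number as a block in the edgeR fit, Setd1a was called lower (adjusted p = 0.0285), where 11.7% of all genes were. Kmt2b averaged 129 ± 12.8 CPM in the Mll2 KO and 157 ± 40.9 CPM in WT (adjusted p = 0.744). Setd1a and Kmt2b thus averaged lower in the KO of their own line. A gene total does not check the loss of part of a gene, so these totals settle neither the Setd1a nor the Mll2 label. The library labelled Mll2 WT 2i replicate 2 stood apart, with a scaling factor of 0.837 where the other 35 libraries had 0.936 to 1.11, and its Kmt2b went against its label: the Mll2 KO 2i cultures had 145 and 136 CPM, against 183 CPM in WT 2i replicate 1 and 89.6 CPM in that library. Library numbers in the table's header fell into 2 ranges, and the later one held all 12 EpiSC libraries and Setd1a KO 2i replicate 1, so EpiSC medium and that range cannot be told apart. All 9 naive pluripotency markers were lower in WT EpiSC than in WT 2i cultures, although Setd1a EpiSC cultures held a summed 363 to 553 CPM of them where those of the other lines had 17.6 to 45.3 CPM. The 7 fibroblast or feeder markers (Col1a1, Col1a2, Col3a1, Thy1, Postn, Lum and Dcn) summed to 82.8 to 6742 CPM in EpiSC, 14.4 to 250 CPM in FCS and 1.94 to 11.9 CPM in 2i libraries.

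The integrated stress response lowers general protein synthesis when amino acids run short, proteins misfold in the endoplasmic reticulum, or haem, viral RNA or mitochondrial stress is sensed. The kinases GCN2, PERK, PKR and HRI then phosphorylate the initiation factor eIF2, and the Atf4 mRNA is translated more efficiently. ATF4, a basic leucine zipper transcription factor, acts with C/EBP partners on genes for amino acid import and synthesis, for further transcription factors and for feedback regulators. Because much of the control of ATF4 is translational, RNA counts do not measure its protein.

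Promoters of 5 of the genes are printed because the results below turn on them. Of these, 4 carry a match to the core of the C/EBP-ATF response element, the composite site that ATF4 binds with a C/EBP partner. Each printed promoter is the 250 bases before the RefSeq start in build GRCm38.p6, written 5′ to 3′ on the gene's own strand, with matches to TGATGNAA on either strand in capitals. They are chr3:50443614-50443863 (minus strand) for Slc7a11, chr2:119350992-119351241 (plus) for Chac1, chr1:191183334-191183583 (minus) for Atf3, chr6:7693210-7693459 (minus) for Asns and chr10:127290543-127290792 (plus) for Ddit3.
Slc7a11: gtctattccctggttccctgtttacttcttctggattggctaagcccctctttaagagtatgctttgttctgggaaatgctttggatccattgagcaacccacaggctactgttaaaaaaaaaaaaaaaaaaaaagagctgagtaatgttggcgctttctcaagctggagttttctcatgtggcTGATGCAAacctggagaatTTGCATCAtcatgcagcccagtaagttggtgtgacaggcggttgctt
Chac1: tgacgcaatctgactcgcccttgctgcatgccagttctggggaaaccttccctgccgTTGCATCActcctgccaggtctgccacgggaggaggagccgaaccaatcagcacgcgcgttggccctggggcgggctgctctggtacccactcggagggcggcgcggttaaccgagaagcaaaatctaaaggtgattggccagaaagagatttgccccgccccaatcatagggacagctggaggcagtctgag
Atf3: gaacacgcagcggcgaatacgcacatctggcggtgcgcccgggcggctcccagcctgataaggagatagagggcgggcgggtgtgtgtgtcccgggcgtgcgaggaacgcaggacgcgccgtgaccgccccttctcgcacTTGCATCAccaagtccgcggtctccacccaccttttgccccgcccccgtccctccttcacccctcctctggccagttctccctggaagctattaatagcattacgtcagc
Asns: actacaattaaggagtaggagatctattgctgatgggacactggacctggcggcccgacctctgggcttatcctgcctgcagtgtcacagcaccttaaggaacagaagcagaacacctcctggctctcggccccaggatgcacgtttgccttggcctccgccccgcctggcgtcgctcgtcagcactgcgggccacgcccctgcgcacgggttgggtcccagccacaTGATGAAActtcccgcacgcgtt
Ddit3: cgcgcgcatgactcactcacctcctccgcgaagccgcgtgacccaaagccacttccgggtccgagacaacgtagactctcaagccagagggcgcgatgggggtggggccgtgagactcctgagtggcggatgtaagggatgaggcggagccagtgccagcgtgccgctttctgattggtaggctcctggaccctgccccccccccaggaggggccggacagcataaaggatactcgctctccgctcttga
Slc7a11 carried 2 matches in opposite orientations, 66 to 59 and 47 to 40 bases before its start. Asns carried its match 23 to 16 bases before the start, Atf3 110 to 103 bases and Chac1 193 to 186 bases before. Matches were thus found in 4 of the 10 genes (11 RefSeq promoters, Psat1 having 2) and in 3.45% of all 32851 mouse promoters of that length. The cAMP response element TGACGTCA was read on both strands and cannot match at the same position as the first motif. It was in none of the 10 genes and in 1.55% of all promoters. A match is a description of letters, not a measured binding site. Bases outside these 250 were not searched, so the lack of a match in Ddit3 does not show that the gene lacks the element.

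In TPM, transcript shares computed here from the counts and the listed gene lengths and so comparable between genes, the enzymes and Atf4 were the highest of the 10 genes in WT cells, and Slc7a11 was the lowest. Asns, which makes asparagine, averaged 610 TPM in 2i, 290 TPM in FCS and 432 TPM in EpiSC medium over 6 WT libraries each. Atf4 averaged 322, 281 and 545 TPM in the same order of media, Psat1 164, 213 and 302 TPM, and Phgdh 95.1, 113 and 230 TPM. Sesn2 followed with 79.5, 87.2 and 137 TPM. Trib3 (22.8, 28.5 and 76.8 TPM), Chac1 (11.5, 18.6 and 74.0 TPM), Ddit3 (10.2, 11.7 and 29.5 TPM) and Atf3 (8.49, 6.99 and 30.4 TPM) lay lower, and Slc7a11 averaged 0.320, 0.496 and 1.14 TPM. In WT 2i libraries Atf4, at 240 to 444 TPM, did not overlap Psat1, at 114 to 233 TPM, whereas the ranges of Chac1 (2.97 to 15.8 TPM), Ddit3 (5.76 to 14.1 TPM) and Atf3 (3.86 to 20.7 TPM) overlapped. Over all 36 libraries Chac1 varied most, by 37.4-fold between its lowest and highest library (2.06 and 77.0 CPM), followed by Slc7a11 with 30.8-fold and Atf3 with 23.0-fold, while Sesn2 (3.33-fold), Psat1 (3.83-fold) and Atf4 (3.87-fold) varied least. CPM, the unit of all other levels, are counts scaled to library size with edgeR's TMM factors and are compared only within a gene.

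**Figure D1:**
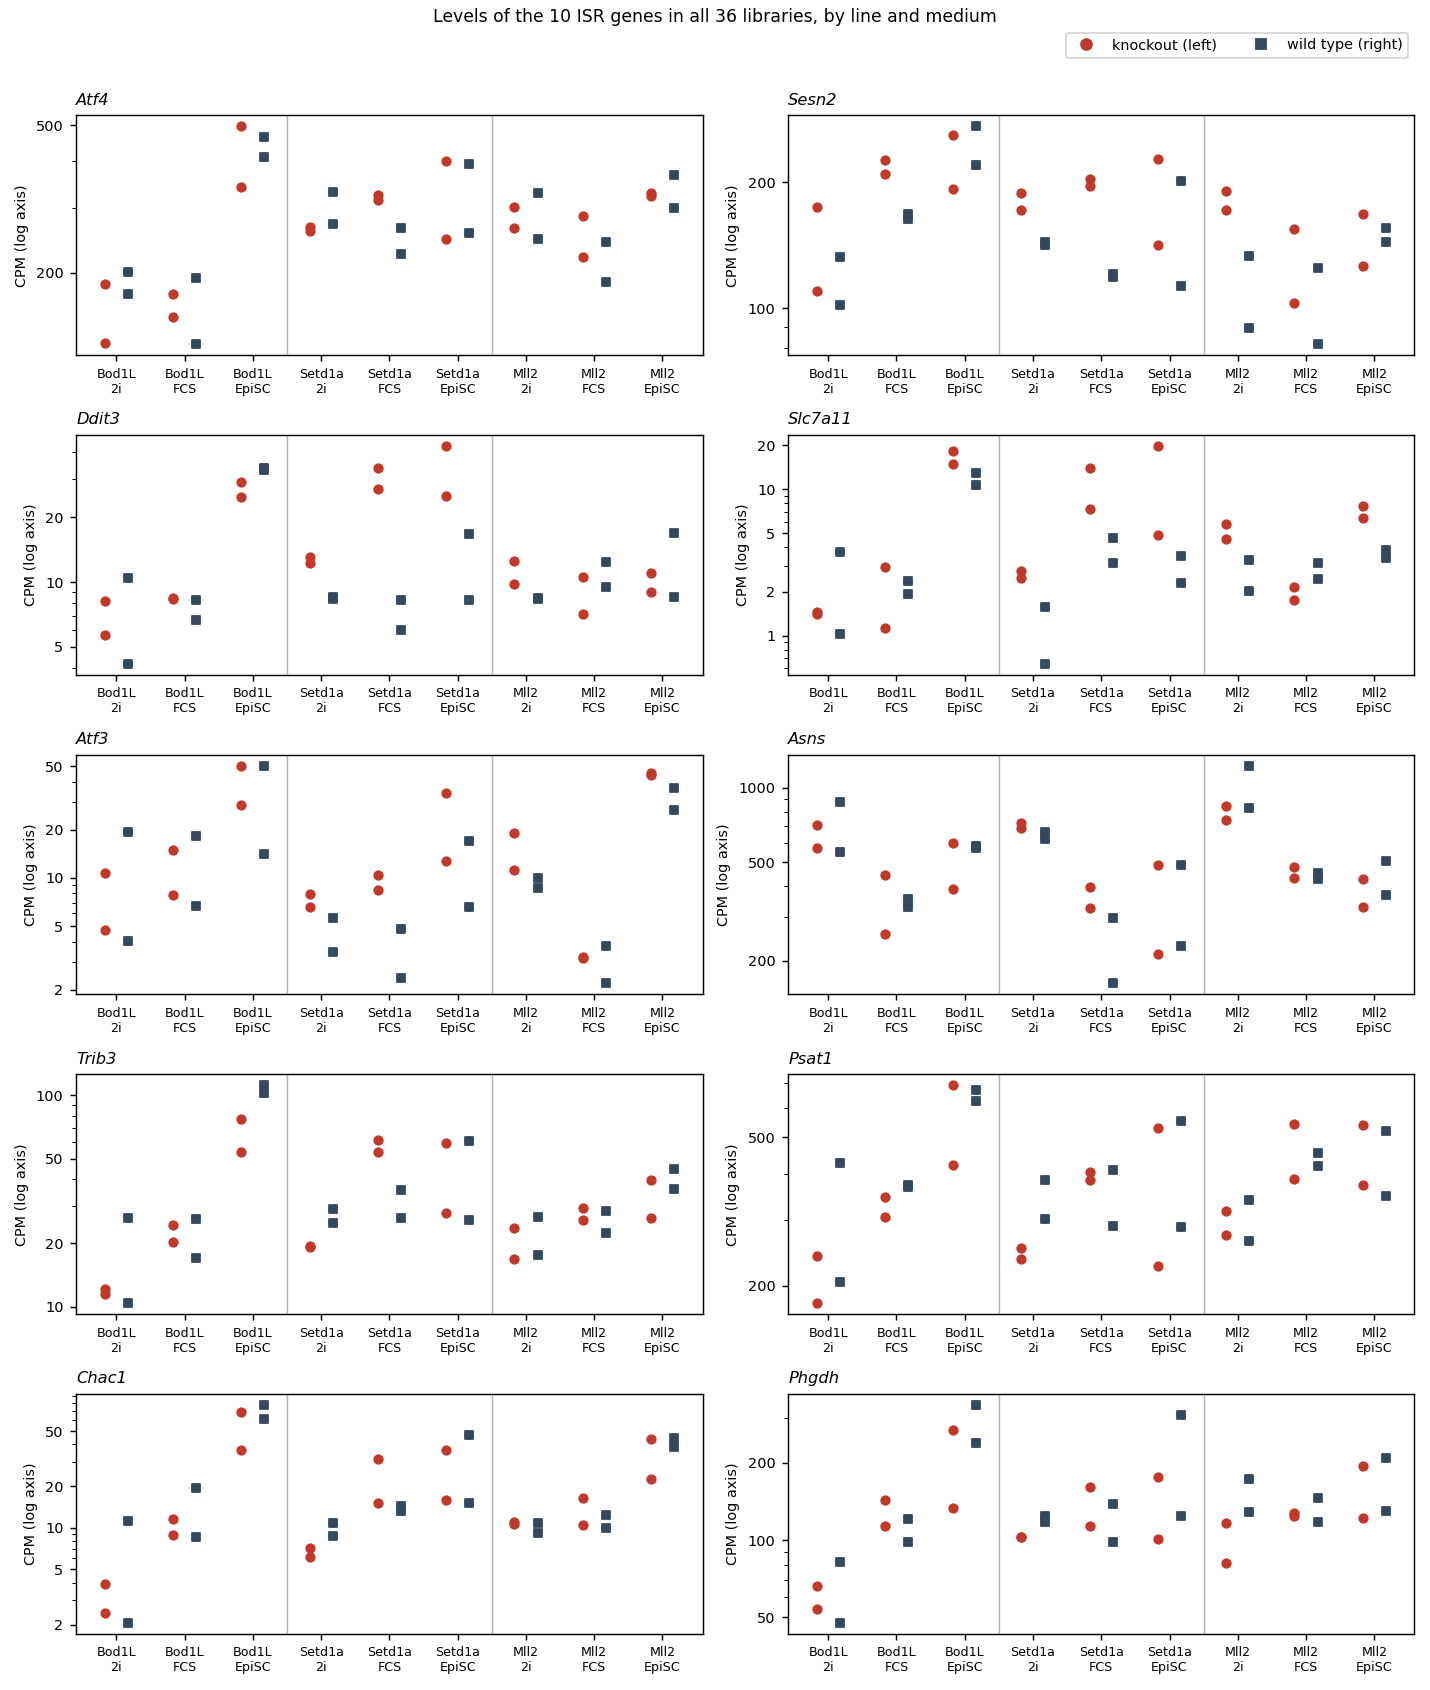
Level of each of the 10 genes in CPM (log axis) in all 36 libraries, by line and medium, with KO cultures as circles on the left and WT cultures as squares on the right of each position. Atf4 lies between 128 and 497 CPM everywhere, whereas Ddit3 in the Setd1a line separates KO from WT in each medium.

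Ddit3 and Slc7a11 rose in the Setd1a KO on average over the 3 media, and Atf4 itself was not called. On average over the media, 2 of the 10 genes were called higher and 0 lower at an adjusted p below 0.05, where 3.29% of all genes tested were called higher and 5.57% lower. Atf3 and Sesn2 were also higher in each of the 6 pairs of same-numbered cultures, and passed the test when the replicate number was a block in the fit. The enzymes Asns, Psat1 and Phgdh, the feedback gene Trib3, and Chac1 and Atf4 were not called in either fit.

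Ddit3 encodes CHOP, a C/EBP-family transcription factor that ATF4 induces and that promotes cell death under unresolved stress. It measured 13.1 and 12.3 CPM in Setd1a KO cells in 2i, 33.8 and 27.1 CPM in FCS and 25.1 and 42.9 CPM in EpiSC medium, against 8.52 and 8.32 CPM in WT cells in 2i, 5.99 and 8.28 CPM in FCS and 8.24 and 16.8 CPM in EpiSC medium. Both KO cultures were above both WT cultures in every medium. This held within each medium for 4.67% of all genes tested. The KO averaged 25.7 ± 11.9 CPM and WT 9.36 ± 3.76 CPM (SD, n = 6 each), a difference of 1.37 ± 0.232 log2 units (SE, edgeR quasi-likelihood test, adjusted p = 0.000343). Leaving out any 1 of the 12 libraries kept the call. Without the EpiSC cultures the difference was 1.34 ± 0.284 (adjusted p = 0.00618), a setting in which 0.591% of all genes were called higher. The gene overlaps Mars and Gm4189 on the opposite strand, and the counting used strand.

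The size of the Ddit3 difference varied with medium, from 1.47-fold to 5.64-fold between same-numbered cultures. In 2i it was 0.59 log2 units (adjusted p = 0.569), and it reached 2.09 ± 0.409 log2 units in FCS with an adjusted p of 0.00998. EpiSC medium gave 1.44 ± 0.401 (adjusted p = 0.0795, and 0.00463 with the replicate block). In FCS it was 1 gene called higher out of 10, where 0.0213% of all genes were called higher and 0.74% lower. None of the 10 was called in 2i or EpiSC medium, where 0.251% and 0.14% of all genes were called higher and 1.44% and 1.4% lower. At an unadjusted p under 0.05, 0 of the 10 passed in 2i and 2 in EpiSC medium, and DESeq2 called 0 in 2i and 2 in EpiSC medium, where it called 0.783% of all genes higher. The FCS call was lost on leaving out any 1 of its 4 libraries: adjusted p was 0.139 without KO replicate 1, 0.0515 without KO replicate 2, 0.192 without WT replicate 1 and 0.0679 without WT replicate 2, with differences of 1.85 to 2.34 log2 units. A test of whether the Setd1a effect differed between media called none of the 10 genes in edgeR, with or without the block, or in DESeq2, and 1, Ddit3, passed at an unadjusted p under 0.05. That test called 0% of all genes.

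Slc7a11, the cystine-glutamate exchanger subunit that supplies cysteine for glutathione, was the least abundant of the 10. It measured 2.75 and 2.48 CPM in Setd1a KO cells in 2i, 7.37 and 13.9 CPM in FCS and 19.7 and 4.88 CPM in EpiSC medium, against 0.641 and 1.57 CPM in WT cells in 2i, 4.68 and 3.13 CPM in FCS and 3.52 and 2.30 CPM in EpiSC medium. Again the KO and WT cultures did not overlap within any medium, with KO replicate 1 in EpiSC medium far above the rest. The KO averaged 8.52 ± 6.92 CPM and WT 2.64 ± 1.45 CPM (SD, n = 6 each), a difference of 1.59 ± 0.345 log2 units (SE, adjusted p = 0.00425). Each of 12 settings with 1 library left out kept the call, and the highest adjusted p was 0.0350, without KO EpiSC replicate 1. Averaged over 2i and FCS alone it was 1.35 ± 0.422 and missed the threshold (adjusted p = 0.0885). In EpiSC medium by itself the difference was 2.07 ± 0.601 (adjusted p = 0.0969, and 0.0147 with the block), and it was 0.74 (adjusted p = 0.839) without KO replicate 1 and was called without KO replicate 2 (adjusted p = 0.0215). That KO replicate 1 library also held 3999 CPM of the 7 fibroblast or feeder markers, where KO replicate 2 held 162 CPM and the WT cultures of the line in EpiSC medium 1083 and 146 CPM. The part of those markers in the EpiSC difference was not tested; in 2i they summed to 9.84 to 11.9 CPM in KO and 4.09 to 4.84 CPM in WT cultures, and Col3a1, Lum and Dcn were at 0 in WT. The span of Slc7a11 also holds the annotated same-strand genes Gm37692 and Gm37498, and reads shared with them are of uncertain assignment.

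**Figure D2:**
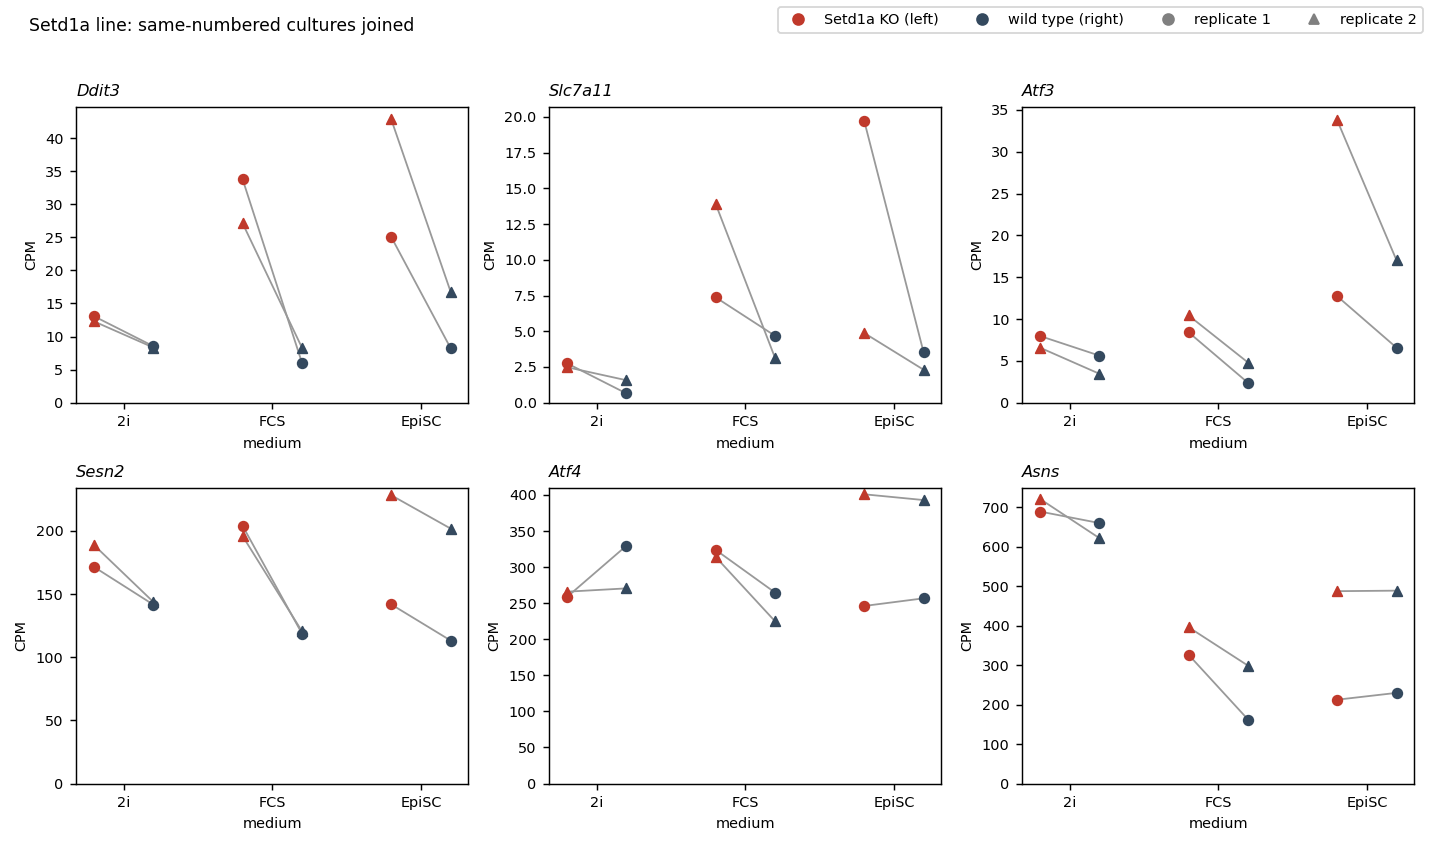
CPM (linear axis from 0) of 6 genes in the Setd1a line in 3 media, with KO cultures on the left and WT cultures on the right and same-numbered cultures joined (circles, replicate 1; triangles, replicate 2). Each of the 6 lines falls towards WT for Ddit3, Slc7a11, Atf3 and Sesn2, whereas those of Atf4 and Asns run in both directions.

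Atf3, an immediate stress-induced factor of the ATF/CREB family, measured 7.97 and 6.57 CPM in Setd1a KO cells in 2i, 8.41 and 10.4 CPM in FCS and 12.7 and 33.8 CPM in EpiSC medium. In the WT cells it measured 5.62 and 3.45 CPM in 2i, 2.37 and 4.79 CPM in FCS and 6.57 and 17.0 CPM in EpiSC medium. Groups overlapped in EpiSC medium, where replicate 2 was the higher culture of both genotypes, and did not overlap in 2i or FCS. Atf3 averaged 13.3 ± 10.3 CPM in KO and 6.64 ± 5.30 CPM in WT (SD, n = 6 each). Its difference of 1.02 ± 0.397 log2 units (SE) had an adjusted p of 0.118 without the block and 0.000316 with it, a fit that called 14.3% of all genes higher. DESeq2 called it as well (adjusted p = 0.0486), with 6.26% of all genes called higher. With the block it was also called in FCS (1.39 log2 units, adjusted p = 0.0122, against 0.795 without) and in EpiSC medium (0.98, adjusted p = 0.0441, against 0.60 without), where that fit called 1.35% and 6.25% of all genes higher.

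Sesn2, which encodes a leucine sensor that restrains mTORC1, averaged 188 ± 29.5 CPM in Setd1a KO and 140 ± 32.9 CPM in WT (SD, n = 6 each). The KO cultures lay at 171 and 189 CPM in 2i, 204 and 196 CPM in FCS and 142 and 228 CPM in EpiSC medium, against 142 and 144 CPM, 119 and 120 CPM and 113 and 202 CPM in WT cultures of those media. The 2 genotypes were apart in 2i and FCS and overlapped in EpiSC medium. The difference of 0.44 ± 0.171 log2 units was not called (adjusted p = 0.119, and 0.00176 with the block). Leaving out WT EpiSC replicate 2 gave 0.60 (adjusted p = 0.0426). In FCS the difference was 0.74 (adjusted p = 0.547, and 0.0122 with the block). Gm12981 overlaps Sesn2 on the same strand.

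Atf4 averaged 302 ± 57.8 CPM in Setd1a KO and 290 ± 60.9 CPM in WT (SD, n = 6 each), a difference of 0.06 ± 0.155 log2 units (adjusted p = 0.876), and was higher in 3 of 6 pairs. By medium, its KO cultures measured 259 and 266 CPM in 2i, 324 and 314 CPM in FCS and 246 and 401 CPM in EpiSC medium, against 330 and 270 CPM, 265 and 225 CPM and 257 and 393 CPM in WT. Thus the KO cultures lay below WT in 2i, above it in FCS and on either side of it in EpiSC medium. Trib3, a pseudokinase that restrains ATF4 and AKT, and Chac1, which degrades glutathione, were also lower in the KO cultures in 2i and higher in FCS. Trib3 measured 19.2 and 19.4 CPM in KO 2i cultures against 29.1 and 24.9 CPM in WT, and 61.4 and 53.8 CPM in KO FCS cultures against 26.4 and 35.5 CPM in WT. Chac1 measured 7.19 and 6.16 CPM in KO 2i cultures against 10.8 and 8.71 CPM in WT, and 31.6 and 15.1 CPM in KO FCS cultures against 13.2 and 14.4 CPM in WT. In 2i, 5 of the 10 genes were higher without overlap (Ddit3, Atf3, Sesn2, Slc7a11 and Asns) and 5 lower, where 33.3% and 32.8% of all genes were. In FCS, 8 were higher without overlap and 0 lower, where 18.3% and 15.5% of all genes were, and the 10 genes had a median difference of 0.75 log2 units against 0.05 over all genes tested. None of these differences of Atf4, Trib3 or Chac1 was called, the nearest being Trib3 in FCS at 0.90 log2 units (adjusted p = 0.697, and 0.0568 with the block).

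Among the enzymes, Asns averaged 472 ± 202 CPM in Setd1a KO and 410 ± 210 CPM in WT (adjusted p = 0.531). Psat1 and Phgdh, of serine synthesis, averaged 339 ± 121 and 126 ± 33.8 CPM in the KO and 371 ± 103 and 152 ± 77.0 CPM in WT (adjusted p = 0.723 and 0.612). The differences of these 3 genes were 0.25, -0.16 and -0.22 log2 units, and none was called. Their SDs are over cultures of 3 media and so hold the differences between media as well. The share of counts from the mitochondrial genome was 7.32 to 7.71% in the KO and 3.43 to 4.11% in WT in 2i, 4.25 to 4.33% and 3.60 to 5.09% in FCS, and 3.89 to 6.27% and 1.98 to 3.42% in EpiSC medium. Its part in the results of the Setd1a line was not tested. In these bulk RNA data, a change in the share of cells that express a gene and a change in RNA per cell cannot be told apart.

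Loss of Bod1L called none of the 10 genes in any medium or on average. The averaged comparison called 0.102% of all genes higher and 1.92% lower, that in 2i 0.00851% and 0.366%, that in FCS 0% and 0.191%, and that in EpiSC medium 0.00851% and 0.43%. None of the 10 passed an unadjusted p of 0.05 in those 4 comparisons, and neither the block nor DESeq2 called any. On average 1 of the 10 genes, Sesn2, had a difference above 0, and the median was -0.12 log2 units against 0.05 over all genes. Chac1 had the most negative value, -0.64 log2 units (adjusted p = 0.719), and measured 3.96 and 2.41 CPM in KO 2i cultures, 11.5 and 8.81 CPM in KO FCS cultures and 68.4 and 36.3 CPM in KO EpiSC cultures, against 11.2 and 2.06, 19.3 and 8.51, and 60.9 and 77.0 CPM in WT. The 2 genotypes overlapped for Chac1 in every medium. Ddit3 averaged 14.1 ± 10.2 CPM in Bod1L KO and 16.1 ± 13.6 CPM in WT (SD, n = 6 each), -0.07 log2 units. Without overlap, Ddit3 and Sesn2 were higher and Psat1 lower in FCS, where 18.8% and 15.8% of all genes were, and Slc7a11 was higher and Ddit3 and Trib3 lower in EpiSC medium, where 13.8% and 11.5% were.

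Loss of Mll2 called none of the 10 genes either, where the averaged fit called 0.0596% of all genes higher and 0.634% lower. In 2i it called 0.034% and 0.43%, and in FCS and EpiSC medium 0%. Unadjusted p was under 0.05 for 1 gene, Sesn2, in 2i and for 0 genes in the other 3 comparisons, and DESeq2 called 0. At that threshold in 2i, 643 of the 23501 genes tested were higher and 1771 lower. Without the block Sesn2 differed on average by 0.33 ± 0.171 log2 units (SE, adjusted p = 0.649). With the replicate block it was called on average (adjusted p = 0.0333) and in 2i at 0.70 (adjusted p = 0.00957, against 0.422 without), where that fit called 2.37% and 2.74% of all genes higher. Sesn2 measured 191 and 172 CPM in Mll2 KO 2i cultures, 103 and 155 CPM in FCS and 126 and 168 CPM in EpiSC medium, against 134 and 89.5 CPM, 81.9 and 125 CPM and 144 and 156 CPM in WT. The KO cultures were the higher ones without overlap in 2i, but not in FCS or EpiSC medium. The 89.5 CPM is from the library labelled Mll2 WT 2i replicate 2, which had the low scaling factor and Kmt2b below that of the KO, and without it the 2i difference was 0.44. Ddit3 averaged 10.0 ± 1.86 CPM in Mll2 KO and 10.7 ± 3.44 CPM in WT, -0.08 log2 units. Slc7a11 and Atf3 had averaged differences of 0.47 (adjusted p = 0.815) and 0.43 (adjusted p = 0.881). In 2i, 4 of the 10 genes were higher without overlap (Ddit3, Atf3, Sesn2 and Slc7a11) and 1 lower (Phgdh), where 14.2% and 17.4% of all genes were. In FCS 0 were higher and 1, Slc7a11, was lower without overlap (13.9% and 14.4% of all genes), and in EpiSC medium 2, Atf3 and Slc7a11, were higher and 0 lower (18.0% and 16.6%).

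**Figure D3:**
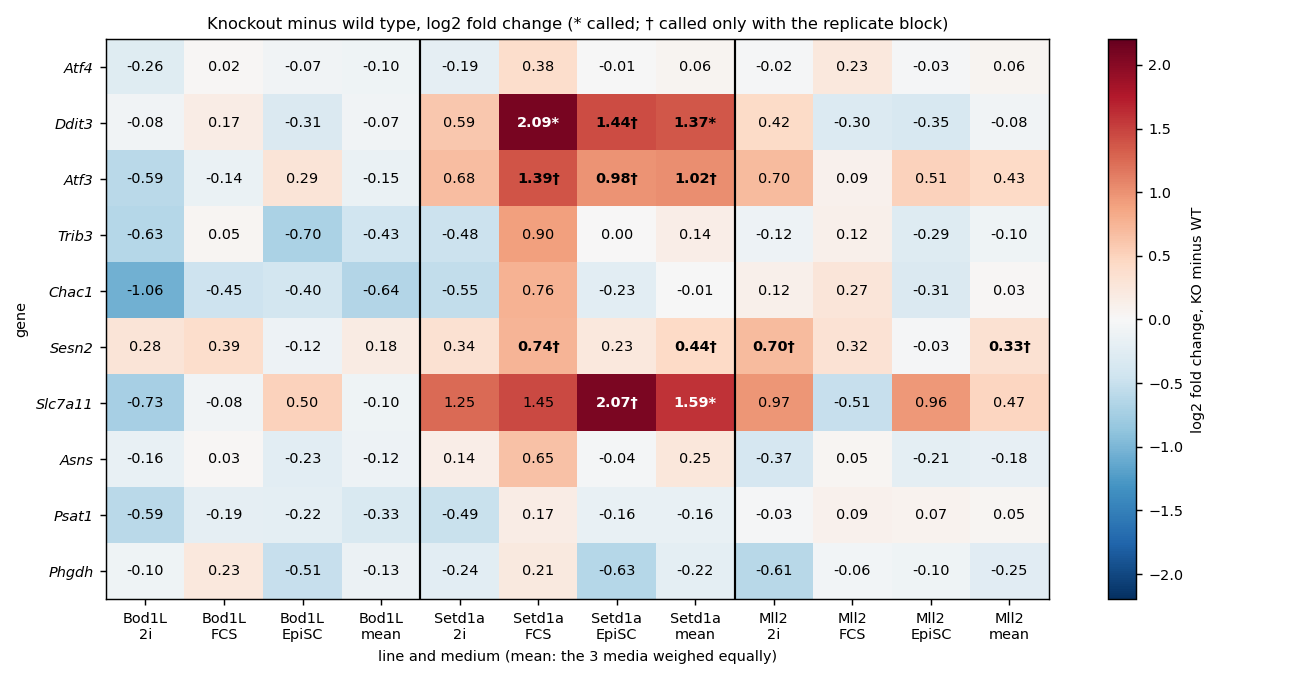
Log2 fold change of KO over WT for each of the 10 genes (rows) in each line and medium and averaged over media (columns), red where higher in KO and blue where lower. Asterisks mark calls at an adjusted p below 0.05 and daggers calls made only with the replicate block; those of the main fit are Ddit3 in FCS (2.09) and on average (1.37) and Slc7a11 on average (1.59), all in the Setd1a line.

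Whether the knockouts differed from each other was tested as a difference of their averaged effects. The effect on Ddit3 was larger for Setd1a than for Mll2 by 1.45 ± 0.324 log2 units (adjusted p = 0.0121), where 0.872% of all genes were called higher and 2.0% lower, and the call held in each of 24 settings with 1 library left out (highest adjusted p 0.0366). Against Bod1L the same gene differed by 1.44 ± 0.324 with an adjusted p of 0.359. That comparison called 0.00426% of all genes higher, and Ddit3 was called there with the replicate block (adjusted p = 0.0194, where 0.37% of all genes were called higher) and by DESeq2 (adjusted p = 0.0120, where 0.0255% were). For Slc7a11 the Setd1a effect was larger by 1.12 than that of Mll2 (adjusted p = 0.272) and by 1.69 ± 0.481 than that of Bod1L (adjusted p = 0.706, and 0.0553 with the block), so no difference between the knockouts was shown for it. None of the 10 genes was called between Bod1L and Mll2 by edgeR, with or without the block, or by DESeq2, and 0 passed an unadjusted p of 0.05, where 0.264% of all genes were called higher and 0.762% lower.

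In WT cells, 9 of the 10 genes were higher and Asns was lower in EpiSC than in 2i medium. EpiSC medium also separated from 2i medium at large, with 25.1% of all genes called higher and 27.4% lower, so that a call for a gene in itself was common. The 10 genes had a median difference of 1.09 log2 units, against -0.07 over all genes tested. Chac1 had the largest difference, averaging 47.1 ± 20.9 CPM in EpiSC and 8.78 ± 3.44 CPM in 2i cultures (SD, n = 6 each), 2.36 ± 0.359 log2 units (SE, adjusted p = 1e-05), and was the sole gene of the 10 without overlap between the 2 media, as were 10.2% of all genes in that direction. By line, Chac1 measured 60.9 and 77.0 CPM in Bod1L, 15.2 and 46.5 CPM in Setd1a and 44.6 and 38.1 CPM in Mll2 WT EpiSC cultures, against 11.2 and 2.06, 10.8 and 8.71, and 9.11 and 10.8 CPM in 2i.

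The transcription factors rose too. Atf4 averaged 365 ± 76.4 CPM in EpiSC and 259 ± 63.7 CPM in 2i WT cultures, a difference of 0.51 ± 0.155 log2 units (adjusted p = 0.00812). Ddit3 averaged 19.6 ± 11.4 CPM in EpiSC and 8.03 ± 2.05 CPM in 2i (1.12 ± 0.231, adjusted p = 0.000314), and Atf3 25.1 ± 16.1 and 8.50 ± 5.86 CPM (1.53 ± 0.399, adjusted p = 0.00278). The Bod1L line carried much of the first pair: its WT EpiSC cultures had 411 and 466 CPM of Atf4 and 33.8 and 33.0 CPM of Ddit3, against 201 and 176 CPM and 10.4 and 4.18 CPM in 2i. In the Setd1a WT cultures, Atf4 measured 257 and 393 CPM in EpiSC and 330 and 270 CPM in 2i medium, and Ddit3 8.24 and 16.8 CPM in EpiSC and 8.52 and 8.32 CPM in 2i medium. In the Mll2 WT cultures, Atf4 measured 299 and 366 CPM in EpiSC and 247 and 328 CPM in 2i medium, and Ddit3 17.0 and 8.55 CPM in EpiSC and 8.36 and 8.42 CPM in 2i medium. The media thus overlapped for Atf4 in the Setd1a and Mll2 lines and were apart in the Bod1L line.

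Of the effectors, Trib3 averaged 63.6 ± 35.6 CPM in EpiSC and 22.5 ± 7.07 CPM in 2i WT cultures (1.37 ± 0.238 log2 units, adjusted p = 5.2e-05). Sesn2 averaged 185 ± 58.2 and 124 ± 22.6 CPM in those media (0.55 ± 0.171, adjusted p = 0.0103), and its call was lost without Setd1a WT EpiSC replicate 2 (0.39, adjusted p = 0.0633). Slc7a11 averaged 6.09 ± 4.46 CPM in EpiSC and 2.04 ± 1.23 CPM in 2i (1.39 ± 0.344, adjusted p = 0.00184), with 12.9 and 10.6 CPM in the Bod1L WT EpiSC cultures and 2.30 to 3.85 CPM in those of the other lines. The serine enzymes rose, Phgdh to 224 ± 88.1 CPM in EpiSC against 112 ± 43.0 CPM in 2i (1.05 ± 0.231, adjusted p = 0.000627) and Psat1 to 500 ± 152 CPM against 320 ± 80.8 CPM (0.62 ± 0.215, adjusted p = 0.0198). The Psat1 call was lost on leaving out any of 5 of the 12 libraries: Bod1L WT 2i replicate 2 (adjusted p = 0.0796), Mll2 WT 2i replicate 1 (0.0521), Mll2 WT EpiSC replicate 1 (0.0712), Setd1a WT 2i replicate 2 (0.0505) and Setd1a WT EpiSC replicate 2 (0.104). Asns ran the other way, with 459 ± 136 CPM in EpiSC and 794 ± 246 CPM in 2i, a fall of 0.79 ± 0.218 log2 units (adjusted p = 0.00437).

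Leaving out the Bod1L line, a setting chosen after the values were seen, reduced the calls to 4 of 10: Atf3 (1.56 log2 units), Trib3 (0.78), Chac1 (1.86) and Asns (-1.03), where 20.9% of all genes were called higher and 21.9% lower. Atf4 (0.16, adjusted p = 0.515), Ddit3 (0.59, 0.0942), Sesn2 (0.28, 0.284), Slc7a11 (0.93, 0.0785), Psat1 (0.41, 0.217) and Phgdh (0.50, 0.157) were then not called. Leaving out the Setd1a line kept all 10 calls, with differences of 0.71 for Atf4 and 1.4 for Ddit3. Leaving out the Mll2 line kept 9, all but Asns, with 0.67 for Atf4 and 1.38 for Ddit3. The share of all genes called is not given for those settings, so their counts stand without a background. The Bod1L WT EpiSC cultures held 6742 and 1097 CPM of the 7 fibroblast or feeder markers, the Setd1a WT EpiSC cultures 1083 and 146 CPM and those of the Mll2 line 82.8 and 104 CPM, and the part of those markers in the medium difference was not tested.

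Against FCS medium, 7 of the 10 genes were higher and 0 lower in EpiSC medium in WT cells, where 20.4% of all genes were called higher and 20.6% lower. The largest differences were those of Atf3, 2.16 ± 0.409 log2 units (25.1 ± 16.1 CPM in EpiSC and 6.37 ± 6.13 CPM in FCS, adjusted p = 0.000242), and Chac1, 1.79 ± 0.351 (FCS 13.0 ± 3.77 CPM, adjusted p = 0.000344). Atf4 rose by 0.83 ± 0.156 (FCS 207 ± 48.1 CPM, adjusted p = 0.00023), Ddit3 by 1.07 ± 0.230 (8.50 ± 2.25 CPM, adjusted p = 0.000826), Trib3 by 1.16 ± 0.237 (25.9 ± 6.15 CPM, adjusted p = 0.000495) and Phgdh by 0.87 ± 0.230 (120 ± 19.8 CPM, adjusted p = 0.00428). Sesn2 rose by 0.50 ± 0.171 (130 ± 32.1 CPM, adjusted p = 0.0223), a call lost without Bod1L WT EpiSC replicate 1 (adjusted p = 0.0623), Mll2 WT FCS replicate 1 (0.0816) or Setd1a WT EpiSC replicate 2 (0.121). Slc7a11 (0.80, adjusted p = 0.0623, and 0.0390 by DESeq2, which called 21.7% of all genes higher), Asns (0.46, adjusted p = 0.0932) and Psat1 (0.35, adjusted p = 0.198) were not called. Asns was called on leaving out Setd1a WT EpiSC replicate 1 (0.61, adjusted p = 0.0277) or Setd1a WT FCS replicate 2 (0.63, adjusted p = 0.0337). Without the Bod1L line 3 calls remained, Atf4 (0.52), Atf3 (2.55) and Chac1 (1.52), where 15.0% of all genes were called higher. Without the Setd1a line Slc7a11 was called as well (1.41, adjusted p = 0.0110), and without the Mll2 line Sesn2 was not (0.48, adjusted p = 0.0867), fits that called 18.0% and 14.3% of all genes higher. All groups of this comparison and of EpiSC against 2i share the WT EpiSC libraries, so the 2 sets of values are not independent.

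Between FCS and 2i medium, Asns was the sole call of the 10, where 13.3% of all genes were called higher and 14.5% lower. Asns measured 330 and 356 CPM in Bod1L, 162 and 299 CPM in Setd1a and 427 and 454 CPM in Mll2 WT FCS cultures, against 874 and 552 CPM, 660 and 622 CPM and 828 and 1228 CPM in 2i. The 2 media did not overlap, as was so for 5.17% of all genes in that direction. Asns averaged 338 ± 104 CPM in FCS and 794 ± 246 CPM in 2i, a fall of 1.25 ± 0.22 log2 units (adjusted p = 0.000164), and was called with each line left out. Chac1 (1.14, adjusted p = 0.0130) and Slc7a11 (0.99, adjusted p = 0.0406) were called higher in FCS when Bod1L WT 2i replicate 1 was left out, and not otherwise with 1 library left out. The 3 WT lines differed in Atf3 (adjusted p = 0.0278) and in none of the other 9 genes, where 14.7% of all genes were called. Over all media Atf3 spanned 4.06 to 50.2 CPM in Bod1L, 2.37 to 17.0 CPM in Setd1a and 2.19 to 36.4 CPM in Mll2 WT cultures, ranges that overlapped. In FCS the Bod1L cultures (18.4 and 6.70 CPM) lay above those of Setd1a (2.37 and 4.8 CPM) and Mll2 (3.76 and 2.19 CPM). Setd1a lay below Mll2 in 2i (5.62 and 3.45 against 8.67 and 9.96 CPM) and in EpiSC medium (6.57 and 17.0 against 26.4 and 36.4 CPM). The other pairs of lines overlapped within each medium. The call was kept in 12 of 18 settings with 1 library left out (highest adjusted p 0.161, without Bod1L WT 2i replicate 1). With the block Asns was called there as well (adjusted p = 0.0165, where 15.5% of all genes were).

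**Figure D4:**
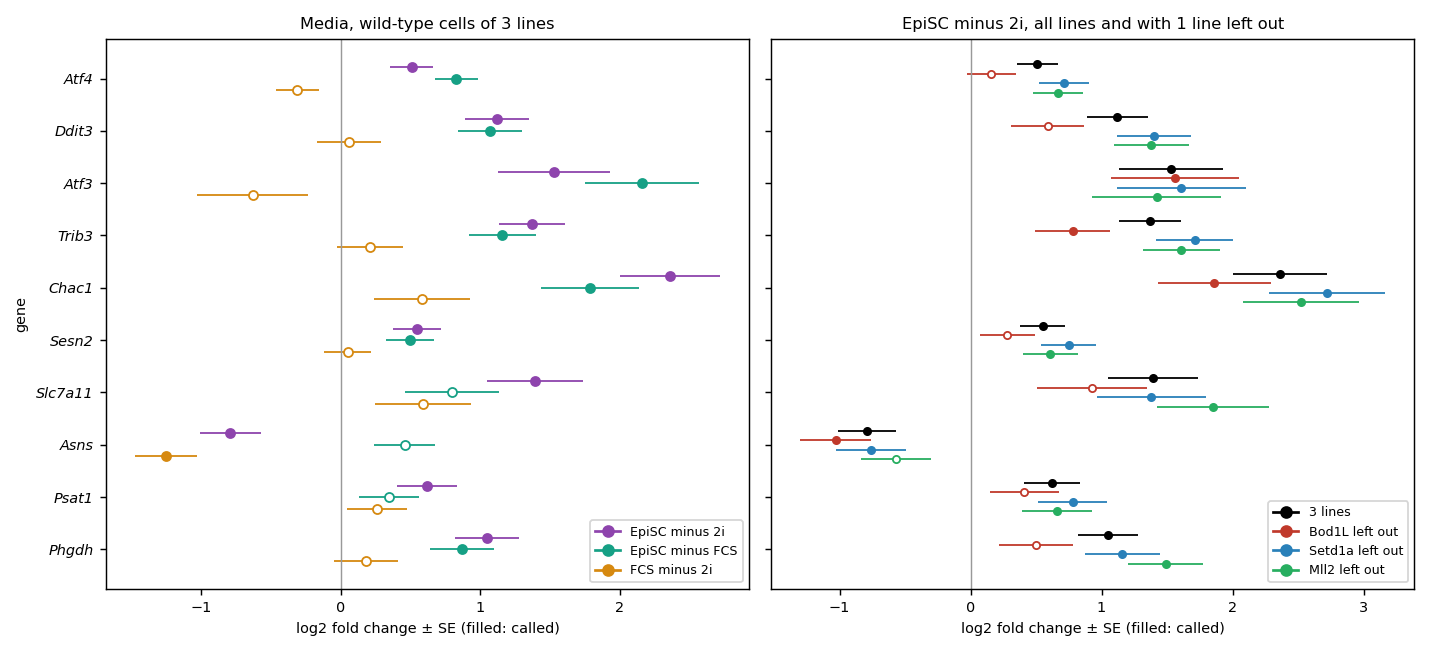
Log2 fold changes between media in WT cells with their SE, filled where called at an adjusted p below 0.05. The left panel gives EpiSC minus 2i, EpiSC minus FCS and FCS minus 2i over 3 lines, and the right panel EpiSC minus 2i with each line left out, where leaving out Bod1L shortens the differences of Atf4 to 0.16 and Ddit3 to 0.59.

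The wider response was read from lists of further genes. On average over media, the Setd1a comparison called 3.29% of all genes higher and 5.57% lower. Averaged over media, loss of Setd1a called 1 of 8 amino acid transporters higher and 0 lower, with a median of 0.33 log2 units against 0.07 over all genes, and 5 higher with the replicate block, a fit that called 14.3% of all genes higher and 11.7% lower. The called gene was Slc7a1, a carrier of arginine and lysine, at 178 ± 42.7 CPM in KO and 107 ± 34.0 CPM in WT (0.76 ± 0.204, adjusted p = 0.0203), a call kept in 6 of 12 settings with 1 library left out (highest adjusted p 0.0906, without KO FCS replicate 2). Of 13 stress effectors 1 was higher and 0 lower (median 0.24, and 3 higher with the block). It was Tnfrsf10b, which encodes a death receptor, at 99.2 ± 34.0 CPM in KO and 53.9 ± 10.2 CPM in WT (0.83 ± 0.216, adjusted p = 0.0162, and 0.0557 without KO EpiSC replicate 1). Of 11 serine, one-carbon and proline enzymes and 5 partner transcription factors, edgeR called 0, 0 passed an unadjusted p of 0.05 and DESeq2 called 0 (medians -0.01 and 0.09), while the block called 2 higher and 2 lower enzymes and 1 partner higher.

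A pair of genes that act upstream of ATF4 fell in the Setd1a KO. That comparison, averaged over media, called 5.57% of all genes lower and 3.29% higher. Of 16 sensors and regulators of eIF2, 2 were lower and 0 higher (median -0.05): Dele1, which relays mitochondrial stress to HRI, at 20.8 ± 5.23 CPM in KO and 41.4 ± 13.8 CPM in WT (-0.97 ± 0.133, adjusted p = 3.03e-05), and Oma1, the protease that cleaves DELE1, at 9.67 ± 1.62 CPM in KO and 14.9 ± 2.42 CPM in WT (-0.62 ± 0.197, adjusted p = 0.0491). Dele1 was called with any 1 library left out and Oma1 in 1 of 12 such settings (highest adjusted p 0.138, without KO 2i replicate 1). Dele1 was called lower in the Bod1L KO as well, at 29.9 ± 11.0 CPM against 41.7 ± 10.9 CPM in WT (-0.51 ± 0.132, adjusted p = 0.0401). The Bod1L comparison averaged over media called 1.92% of all genes lower. Its Dele1 call was kept in 1 of 12 such settings (highest adjusted p 0.169, without Bod1L WT FCS replicate 1). Of 13 tRNA charging genes, several of which ATF4 is known to raise, 0 were higher and 2 lower in the Setd1a KO, the leucyl and methionyl synthetases Lars (215 ± 68.8 CPM in KO and 329 ± 44.8 CPM in WT, -0.65 ± 0.133, adjusted p = 0.00249) and Mars (165 ± 30.9 CPM in KO and 254 ± 44.8 CPM in WT, -0.63 ± 0.140, adjusted p = 0.00533). Lars was also the 1 gene of that list called in the Bod1L KO, at 302 ± 107 CPM against 446 ± 134 CPM in WT (-0.59 ± 0.133, adjusted p = 0.0128), a call kept in 8 of 12 settings with 1 library left out (highest adjusted p 0.0877, without Bod1L WT 2i replicate 1).

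Genes of other stress pathways were called beside Ddit3. The Setd1a comparison averaged over media called 3.29% of all genes higher and 5.57% lower, and 14.3% higher with the block. Ddit3 is also induced in the unfolded protein response, and of 16 chaperone and degradation genes of its ATF6 and XBP1 arms 4 were higher and 0 lower in the Setd1a KO (median 0.38, 10 higher with the block). Dnajb9, an ER co-chaperone, measured 27.4 ± 10.9 CPM in KO and 15.7 ± 3.25 CPM in WT (0.74 ± 0.166, adjusted p = 0.0056). Of 13 p53 targets, a group to which Sesn2 belongs by its known regulation, 5 were higher and 0 lower (median 0.58, 8 higher with the block), led by Btg2, Mdm2 and Ccng1. Mdm2, the p53 ubiquitin ligase, measured 493 ± 176 CPM in KO and 202 ± 42.1 CPM in WT (1.24 ± 0.246, adjusted p = 0.0018). Of 9 NRF2 targets, the antioxidant group that also takes in Slc7a11, 1 was higher and 1 lower (median 0.30). In the Bod1L KO none of the 10 genes was called, and the averaged comparison called 0.102% of all genes higher. The ER list had 1 gene higher there, Creld2 at 58.7 ± 16.3 CPM against 39.0 ± 8.77 CPM in WT (0.58 ± 0.122, adjusted p = 0.00674). All 16 genes of that list were above 0, with a median of 0.42 against 0.05 over all genes. With the block 10 were called, a fit that called 2.11% of all genes higher. The p53 list had 1 gene higher in the Bod1L KO as well (median 0.36, 4 with the block), Btg2 at 133 ± 65.2 CPM against 81.9 ± 41.5 CPM in WT (0.70 ± 0.180, adjusted p = 0.0401), a call kept in 3 of 12 settings with 1 library left out (highest adjusted p 0.219, without Bod1L KO EpiSC replicate 2). In the Mll2 KO these lists held no call by edgeR without the block or by DESeq2, and with the block 2 p53 targets, 1 stress effector and 1 serine, one-carbon or proline enzyme were called higher, where that fit called 2.37% of all genes higher. At an unadjusted p under 0.05 there were 3 p53 targets, 1 sensor, 1 stress effector and 1 NRF2 target, all higher, and 0 of the transporters, partner factors, serine, tRNA charging and ER genes. At that threshold, 660 of the 23501 genes tested were higher and 1320 lower in the Mll2 KO averaged over media. A further list held 9 immediate early genes, which growth factors induce. In the Setd1a KO 1 was higher and 0 lower (median 0.43, 3 higher with the block), Jun (0.85 ± 0.247, adjusted p = 0.0332), a call kept in 5 of 12 settings with 1 library left out. In the Bod1L and Mll2 KO 0 of them were called, and 1 and 2 were called higher with the block.

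**Figure D5:**
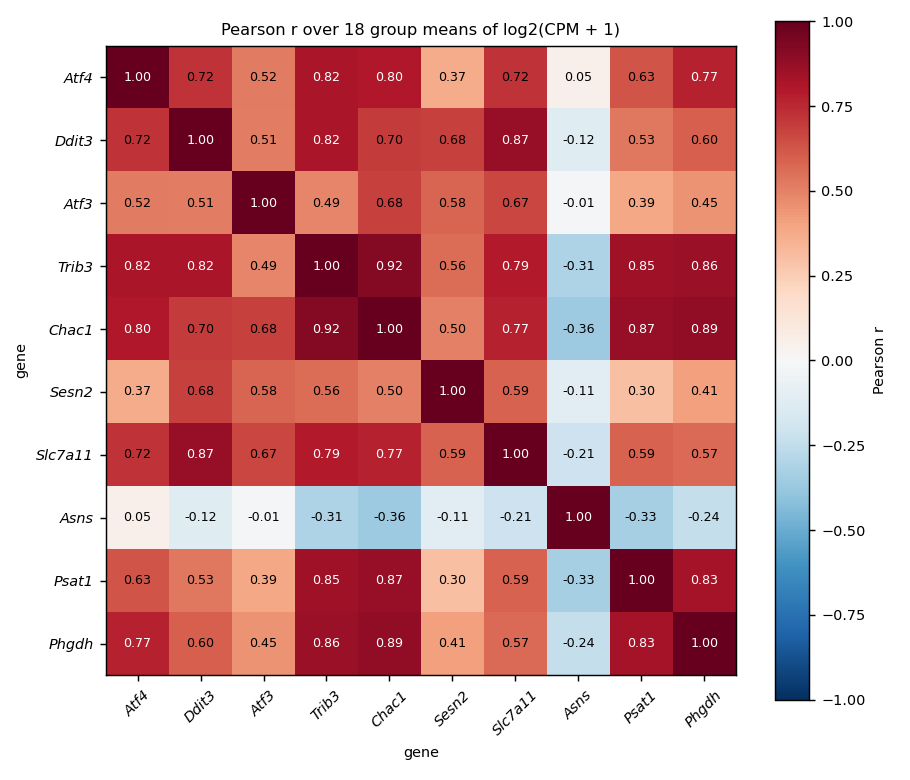
Pearson r between the 10 genes over 18 group means of log2(CPM + 1), red positive and blue negative. The highest value is that of Trib3 with Chac1 (0.92), and Asns lies between -0.36 and 0.05 with each of the other 9.

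More genes of these lists were called between media, as were more genes at large, and the counts for WT EpiSC against 2i stand beside 25.1% of all genes called higher and 27.4% lower. In WT EpiSC against 2i cultures, 6 of 8 amino acid transporters rose and 0 fell (median 1.09 log2 units), led by Slc7a5, the leucine carrier, at 615 ± 257 CPM in EpiSC and 199 ± 115 CPM in 2i (1.62 ± 0.254, adjusted p = 1.54e-05). Of 5 partner factors 3 rose and 1 fell (median 0.90), among them Cebpg, which pairs with ATF4, at 81.6 ± 25.4 CPM in EpiSC and 42.4 ± 3.62 CPM in 2i (0.90 ± 0.120, adjusted p = 2.18e-06). Of 13 stress effectors 9 rose and 2 fell (median 1.08), with Ddit4, an mTORC1 inhibitor, at 483 ± 213 CPM in EpiSC and 64.0 ± 18.9 CPM in 2i (2.92 ± 0.323, adjusted p = 1.56e-07). Of 11 serine, one-carbon and proline enzymes 5 rose and 2 fell (median 0.51), and of 13 tRNA charging genes 3 rose and 0 fell (median 0.18). The eIF2 regulators went the other way, 1 higher and 6 lower (median -0.23), including the eIF2B subunit genes Eif2b4 (-1.45) and Eif2b5 (-1.54). The ER list had 1 higher and 6 lower (median 0.12), and the NRF2 list 0 higher and 5 lower (median -0.65). Of 13 p53 targets 6 were higher and 2 lower (median 0.39), and of 9 immediate early genes, which growth factors induce, 7 were higher and 0 lower (median 2.89), led by Egr1 at 44.9 ± 25.0 CPM in EpiSC and 0.494 ± 0.230 CPM in 2i.

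Across the 18 group means of log2(CPM + 1), the 10 genes formed 45 pairs with a median Pearson r of 0.59, of which 29 were above 0.5 and 8 below 0, each of those 8 with Asns. Trib3 and Chac1 were closest (0.92), followed by Chac1 with Phgdh (0.89). Ddit3 was closest to Slc7a11 (0.87) and Atf4 to Trib3 (0.82). The group means share lines, media and libraries and include the media differences above, so these values are descriptions. Among 12234 other genes of at least 5 CPM, the closest to the mean of the 10 were Slc6a9 (0.908), Slc3a2 (0.906), Aldh18a1 (0.903), Herpud1 (0.903) and Cebpg (0.895). The genes most like Ddit3 were Stom (0.898), Cars (0.861) and Eno2 (0.831), and those most like Asns were Mpc2 (0.897), Pnpla3 (0.886) and Pcbd2 (0.884).

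The 2 cultures of a group often deviated together in KO and WT. In Setd1a EpiSC cultures all 10 genes deviated the same way in both genotypes, 9 of them with replicate 2 as the higher culture and Slc7a11 with replicate 1. In Mll2 EpiSC cultures it was also 10 of 10, with 4 higher in replicate 2 and 6 in replicate 1, and in Setd1a FCS cultures 4 of 10. Chac1 lay at 15.9 and 36.5 CPM in KO and 15.2 and 46.5 CPM in WT EpiSC cultures of the Setd1a line (replicates 1 and 2), and Phgdh at 101 and 177 CPM in KO and 124 and 307 CPM in WT. In the same cultures the general pluripotency markers (Pou5f1, Sox2 and Nanog) summed to 511 and 1101 CPM in KO and 722 and 1848 CPM in WT. Their part in those steps was not tested.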

How the data were processed

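Poly(A)-selected, ribosomal RNA-depleted, strand-specific libraries of 36 cultures were analysed. Per the submitters' processing notes, GSNAP and featureCounts 1.5.2 were used with GRCm38 (mm10), and per the file headers reads were counted reverse-stranded on Ensembl 87. The values deposited by the authors are raw counts per gene. The 92 spike-in lines, with 0 counts, were removed, and 345 genes had no symbol. Members and gene lists were chosen with earlier results of these data known. Within the lists, at most the 3 called genes of lowest adjusted p were named.

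edgeR 4.0.16 (R 4.3.3) fitted the quasi-likelihood model to 18 groups (18 residual degrees of freedom), with TMM factors and genes of at least 10 counts by filterByExpr, and adjusted p by Benjamini-Hochberg over 23501 genes. The threshold was 0.05. DESeq2 1.42.0 was an alternative. The edgeR fit of 18 groups was tested on simulated data, and the fits with the replicate block and with DESeq2 were not. The simulated data held no differences between media and no shared deviation of same-numbered cultures. Correlations used log2(CPM + 1). Same-numbered KO and WT cultures of a line and medium deviated together (r of 0.344 to 0.871 over 12244 genes, above 0.1 in all 9 pairs of groups); the labels do not state such a pairing, so values with the replicate number as a block are given where they change a call. Promoters are RefSeq's, for all 10 genes.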

Additional observations from a re-analysis of the deposited data

Results flagged for a closer look

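In the WT 2i cultures, Bod1L replicate 2 lay far below the other 5 libraries in Ddit3 (4.18 CPM) and in Chac1 (2.06 CPM). Among the 6 WT libraries of the Setd1a line, which span 3 media, EpiSC replicate 2 lay far above the rest in Ddit3 (16.8 CPM), Chac1 (46.5 CPM) and Phgdh (307 CPM). These 5 values came from 90 groups of libraries examined, of which chance flags about 1 in 20. The Setd1a KO effect on Ddit3 exceeded the Mll2 KO effect by 1.45 log2 units, by a test of the difference itself.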

How the results depend on the processing

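Of the 10 genes, the Setd1a KO comparison called 1 in FCS (3 with the replicate block, 0 with the compared libraries alone in the fit, 0 to 0 with 1 library left out), 0 in EpiSC medium (3 with the block, 2 by DESeq2, 1 without a filter on low counts, 0 to 1 with 1 library left out) and 2 on average (4 with the block, 3 by DESeq2 and without the filter, 2 to 3 with 1 library left out). Settings added after seeing the data gave 1 for that average without EpiSC medium, and without the Bod1L line 4 instead of 10 for WT EpiSC against 2i and 3 instead of 7 for EpiSC against FCS, which had 8 by DESeq2, without the filter and without the Setd1a line and 6 without the Mll2 line. With 1 library left out these media counts were 8 to 10 and 6 to 8. The block also gave 1 instead of 0 in the Mll2 KO in 2i and on average. The difference between the Setd1a and Bod1L effects went to 1 with the block, by DESeq2 and without the filter. FCS against 2i went from 1 call to 2 without the filter and spanned 1 to 3 with 1 library left out. The difference between WT lines went from 1 call to 2 with the block or without the filter and to 0 with the compared libraries alone, and spanned 0 to 2. The causes were not tested, except that fewer samples enter the fits with compared libraries alone or with 1 left out. Of 180 single values, 22 were called; the block added 10 calls, named in the report where they arose, and changed no other call. RLE factors and a minimum of 1 CPM changed 0 calls, and none of the 22 called values reversed under any setting. Precision is limited by 2 cultures a group and, for Slc7a11, by counts as low as 21.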
